A study of Mus musculus with 4 samples.

Results

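RAD21 binding was examined around 9 genes that lie near well-known borders between topological domains of the mouse genome: Shh and Lmbr1 on chromosome 5, Wnt6, Ihh, Epha4 and Pax3 on chromosome 1, and Kcnj16, Kcnj2 and Sox9 on chromosome 11. All RAD21 binding sites between the outermost of these genes and up to 100 kb outside them were taken. The deposited lists held 45 such sites in embryonic stem cells (ESCs) and 29 in embryoid bodies (EBs), of 15311 and 11022 sites in all. Sites of the lists that overlapped were joined into 1 place. This gave 53 places of 18849, and 18488 of those were on autosomes.

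RAD21 was mapped by chromatin immunoprecipitation and sequencing (ChIP-seq) in the mouse ESC line R1/E, kept with LIF (day 0), and in EBs grown from them for 12 days, which are aggregates of differentiating cells. All cells, those of the control libraries included, carried Rad21 with a GFP-containing LAP tag on a bacterial artificial chromosome beside their own Rad21. The RAD21 libraries were precipitated with a goat antibody against GFP, and the controls with goat IgG. There was 1 library per group, so ratios between cell types describe these libraries, and their intervals (95%, exact) cover counting error only. The RAD21 libraries held 14133430 reads in ESCs and 8006161 in EBs, and the IgG libraries 13002597 and 7067703. Reads within 250 bp of a summit were compared per 1000000 autosomal reads (RPM), so that equal RPM means 0.564 EB reads for each ESC read. Reads of a precipitation give no expression of marker genes by which the labelled cell types could be checked.

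Cohesin, the ring-shaped complex that RAD21 belongs to, extrudes DNA into loops and is halted by CTCF, a zinc finger protein with a long, asymmetric binding motif. Loops mostly form between motifs that point towards each other, and borders between domains are known to hold motifs that point away from each other. Such borders keep enhancers to the genes of their own domain. Shh (a secreted morphogen) is driven in the limb bud by an enhancer in intron 5 of Lmbr1, a gene for a membrane protein. Epha4 encodes a receptor tyrosine kinase, flanked by Pax3, a transcription factor of neural tube and muscle, and by the ligand genes Wnt6 and Ihh. Sox9, a transcription factor of cartilage and testis, is separated from the potassium channel genes Kcnj2 and Kcnj16 by a long region with few genes. No map of domains was used, so borders are named here only through the genes they are known to separate.

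The sequences below are a selection of the CTCF motif matches, made after the order of strands was seen. They are S2 and S3 beside Shh, S4 and S7 in Lmbr1, and 3 between Epha4 and Pax3. Around the changes of strand at W16 and W17 and at K6 and K7, W16 to W21 and K5 to K9 are shown. Matches at the ends of the longest stretches without sites are included. Not shown from the same parts are S5 (plus strand) and S6 (minus strand) in Lmbr1, and W15, W24, W29, K1, K3 and K4 (minus strand). They were read from the mm9 genome in the direction of the motif, with the 12 central bases in capitals, and places are numbered along the chromosome (S around Shh, W from Wnt6 to Pax3, K from Kcnj16 to Sox9).
S2, chr5:28777907-28777926, plus strand: atggCCACCAGAGGGCgctc
S3, chr5:28796485-28796504, minus strand: agggCCAGAAGGGGGAaggg
S4, chr5:29601477-29601496, minus strand: tcagCCAACAGGTGGCacta
S7, chr5:29662574-29662593, minus strand: gataCCAGCAGGTGGCagta
W16, chr1:75594401-75594420, minus strand: tctgCCACTAGGGGGCagca
W17, chr1:75649268-75649287, plus strand: ttggCCAGCAGAGGTCactc
W18, chr1:75650311-75650330, plus strand: ttggCCACCAGGTGGCgcca
W19, chr1:75922485-75922504, plus strand: agtgCCGACAGGGGGCgcca
W20, chr1:75952595-75952614, plus strand: gaggCCAGGAGAGGGCatcg
W21, chr1:75993987-75994006, plus strand: gatgGCATCAGGTGGCagta
W27, chr1:77927437-77927456, minus strand: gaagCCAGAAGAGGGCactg
W28, chr1:77939855-77939874, plus strand: ttggCCACTAGAGGGCgaac
W30, chr1:77975453-77975472, plus strand: acaaCCACTAGATGGCgcca
K5, chr11:111384982-111385001, minus strand: ttggCCAACAGGTGGCgcca
K6, chr11:111393966-111393985, minus strand: gtgaCCACTAGATGGCagag
K7, chr11:111397531-111397550, plus strand: tctaCCGCCAGATGGCagca
K8, chr11:111399152-111399171, plus strand: gttaCCAGCAGGTGGCagtc
K9, chr11:111514372-111514391, plus strand: gattCCAAAAGAGGGCagtg
K10, chr11:111964757-111964776, minus strand: ccaaCCACTAGAGGTCagta
The 20 bases were matched to a weight matrix learned on other chromosomes. Among these the best match was at W18 with 26.3 bits, followed by S2 with 25.8 bits and W16 with 24.1 bits, and the weakest was at W21 with 12.7 bits. A share of 1e-05 of random genome positions reached 19.9 bits, and a share of 1e-04 reached 9.85 bits. These are the rates used below, 1e-05 as the main setting and 1e-04 as the alternative. Both are rates per position and strand. The best match within 150 bp of a summit was taken, so a random window passes more often than its rate.

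Longer sequence is shown for a pair of places between Kcnj2 and Sox9 with motifs on opposite strands, and for W26, the EB site of highest score in the neighbourhoods, which held no match. All 3 are on the plus strand and span 121 bases around the summit, with the 20 matched bases in capitals where there were any.
K6, chr11:111393876-111393996, plus strand: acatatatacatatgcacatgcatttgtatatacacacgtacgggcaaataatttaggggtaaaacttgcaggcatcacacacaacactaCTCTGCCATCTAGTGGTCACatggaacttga
K7, chr11:111397483-111397603, plus strand: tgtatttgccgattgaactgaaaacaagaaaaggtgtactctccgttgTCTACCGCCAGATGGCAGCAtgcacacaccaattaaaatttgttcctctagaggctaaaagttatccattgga
W26, chr1:77892888-77893008, plus strand: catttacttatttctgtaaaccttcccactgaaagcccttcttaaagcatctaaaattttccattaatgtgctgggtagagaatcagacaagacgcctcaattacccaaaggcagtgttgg
K6 and K7 lay 3607 bp apart. The match of K6 reads on the minus strand and that of K7 on the plus strand, so that the motifs point away from each other.

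The Shh to Lmbr1 neighbourhood (chr5:28683355-29804930, mm9, 1.12 Mb) held 8 places, at its ends and almost none between. Shh itself (chr5:28783355-28793641, minus strand) held no site. Place S3, 2.95 kb upstream of the Shh start, and S2, 15.7 kb downstream of it and beyond the 3′ end of the gene, lay on either side. Lmbr1 (chr5:29556354-29704930, minus strand) held 4 places, S4 to S7. S8 was 11.1 kb upstream of the Lmbr1 start, in an exon of 4632411P08Rik, and S1 was in an intron of Rbm33 beyond Shh.

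**Figure D1:**
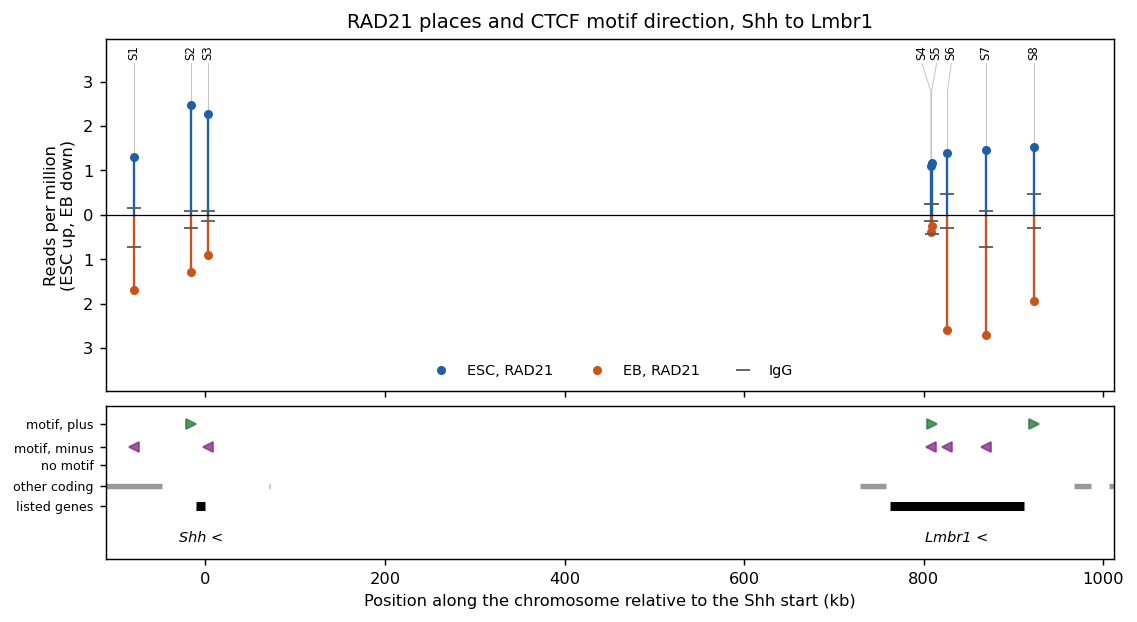
RPM within 250 bp of each place from Shh to Lmbr1, against position along the chromosome in kb from the Shh start; ESCs point up, EBs down, grey dashes are the IgG libraries of the same cells. The lower panel gives motif strand and genes, and no place lay between S3 and S4, which are 804 kb apart.

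The places beside Shh were the highest of this neighbourhood in ESCs. S2 had 34 reads in the ESC RAD21 library, 10 in the EB RAD21 library, and 1 and 2 in the ESC and EB IgG libraries. S3 had 31 and 7 RAD21 reads against 1 and 1 IgG reads, and it had the highest ESC score of the neighbourhood. Neither was in the EB list. S3 fell to 0.40 of its ESC level (0.15 to 0.93), and S2 had a ratio of 0.52 with an interval that held 1 (0.23 to 1.08).

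Inside Lmbr1 the lists differed between its 3′ and 5′ parts. S4 and S5, 787 bp apart in intron 9 of 16, were in the ESC list alone, with 15 and 16 ESC reads against 3 and 2 EB reads. The IgG libraries had 3 and 1 reads at S4 and 3 and 3 at S5. S5 was lower in EBs, with a ratio of 0.22 (0.025 to 0.94), while the interval of S4 held 1 (0.066 to 1.25).

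S6 and S7 were in both lists. S6, in intron 5, the intron known for the limb enhancer of Shh, had 19 ESC and 20 EB reads against 6 and 2 IgG reads, and it was the EB site of highest score here. It lay 406 bp from the 3′ end of that intron, which is 30.9 kb long. The position of the enhancer within the intron was not compared with S6. S7, in intron 4, had 20 and 21 RAD21 reads against 1 and 5 IgG reads. At S8 the RAD21 counts were 21 and 15, against 6 and 2. The ratios of S6, S7 and S8 were 1.87, 1.86 and 1.27, and all 3 intervals held 1.

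From Wnt6 to Pax3 (chr1:74718466-78293709, 3.58 Mb) there were 31 places, of which 12 were in both lists, 14 in the ESC list alone and 5 in the EB list alone. They were unevenly spread. The gene-rich part from W1 to W18, which ends 94.1 kb past W15 in an exon of Slc4a3, held 18 places in less than 1 Mb. Beyond W21, W22 was the only place before W23, which lay 1516 kb from W21 in intron 1 of Epha4.

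**Figure D2:**
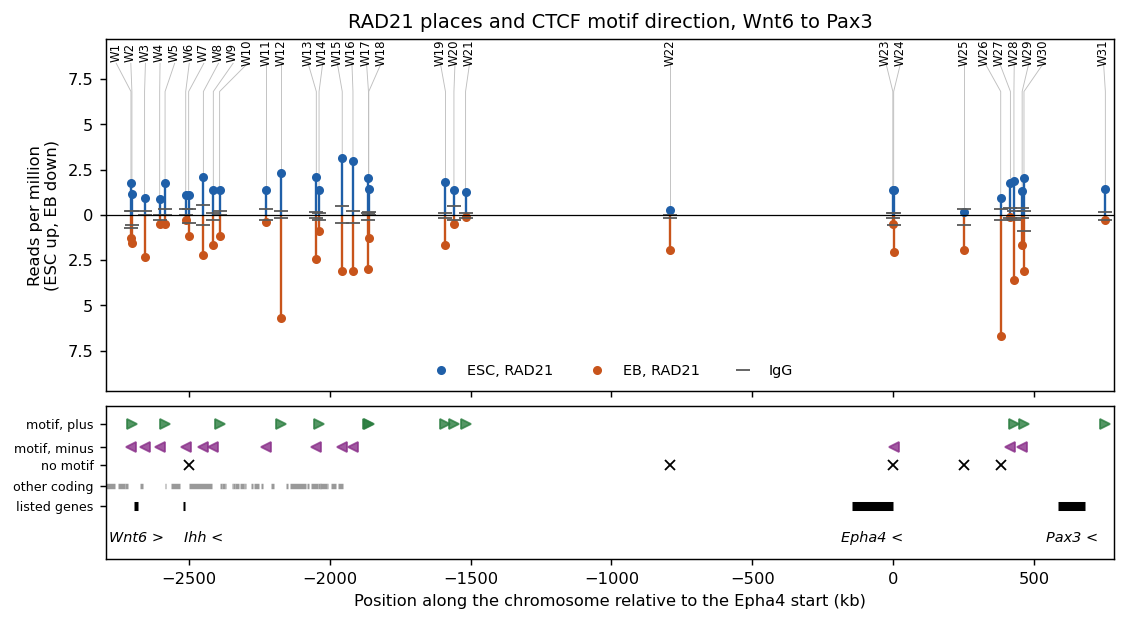
RPM at the 31 places from Wnt6 to Pax3, against position along the chromosome in kb from the Epha4 start (ESCs up, EBs down, IgG as grey dashes). Motifs from W17 to W21 all point to the right, into the region around Epha4 where W22 is the only place for 1516 kb before W23, and W26 is the highest EB value.

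None of the places was in Wnt6 (chr1:74818466-74831893, plus strand) or Ihh (chr1:74991891-74998246, minus strand). W2, 8.55 kb upstream of Wnt6, was in both lists with 16 ESC and 12 EB reads against 3 and 4 IgG reads. W3, 36.4 kb downstream of the Wnt6 start, joined an ESC and an EB site with summits 996 bp apart. At the EB summit there were 13 ESC and 18 EB reads, against 3 and 0 IgG reads, a ratio of 2.45 (1.14 to 5.45). At the ESC summit the counts were 19 and 2. So W3 was higher in EBs at one of its summits, and the ESC reads were more at the other.

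Around Ihh the places were in the ESC list alone. W6, 2.61 kb upstream of the Ihh start, had 15 and 2 RAD21 reads against 4 and 0 IgG reads, a ratio of 0.24 (0.026 to 1.02). W5, 70.6 kb on the other side, fell to 0.30 (0.074 to 0.86), with 24 and 4 RAD21 reads against 4 and 0. Both had fewer EB reads than the limit that 95% of random windows without sites stayed at or under, which was 5 reads in the EB RAD21 library and 7 in the ESC one.

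Between Ihh and Epha4 (2366 kb) 17 places were found, of which 2 were called higher and 2 lower in EBs, that is at least 2-fold with an interval that excludes 1. Over all autosomal places 17.6% were called higher and 18.1% lower. W11 had 19 ESC and 3 EB reads against 4 and 2 IgG reads, a ratio of 0.28 (0.053 to 0.95). W12 had 32 and 44 reads against 3 and 1, a ratio of 2.44 (1.51 to 3.97). They lie 52.4 kb apart, so that neighbouring places were called in opposite directions. Neither call held throughout. That of W11 was lost with reads within 100 bp or 500 bp of the summit. That of W12 was lost with the ratio set to a median of 1 at places in both lists. The ESC site of highest score was W16, with 41 ESC and 24 EB reads against 3 and 3 IgG reads and an even ratio of 1.04 (0.60 to 1.76).

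After W16 the direction of the motifs changed (at the rate of 1e-04). W15 and W16 had motifs on the minus strand. W17, 55.0 kb further, and the next 4 places, W18 to W21, all had them on the plus strand, that is towards Epha4. W17 had 28 ESC and 23 EB reads against 1 and 2 IgG reads, and W18, 1035 bp away, had 20 and 10 against 2 and 0. W17 was in both lists and W18 in the ESC list alone.

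W21, the last of the run, was lower in EBs. It had 17 reads in ESCs and 1 in EBs, against 1 and 1 IgG reads, a ratio of 0.10 (0.0025 to 0.67). W22, in the middle of the region without genes, went the other way: 4 ESC and 15 EB reads against 0 and 1 IgG reads, a ratio of 6.64 (2.12 to 27.5). It was listed in EBs alone and had no motif match at either rate. In the ESC list, the stretch between W21 and W23 was therefore unbroken.

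The Epha4 start had a place on each side. Epha4 (chr1:77363760-77511663, minus strand) held W23 in intron 1, 1.51 kb downstream of the start, with 19 ESC and 4 EB reads against 1 and 1 IgG reads. W24, 1.44 kb upstream, had 19 and 16 reads against 1 and 4. W23 was listed in ESCs alone and W24 in EBs alone, yet the ESC reads at both were the same. The ratio was 0.37 at W23 (0.092 to 1.12) and 1.49 at W24 (0.72 to 3.06), so neither was called.

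The 586 kb between Epha4 and Pax3 held 7 places and no coding gene, 6 of them in the EB list and 3 in the ESC list. In both lists were 2, in the ESC list alone 1 and in the EB list alone 4. Over all autosomal places these shares were 39.6%, 42.0% and 18.5%. Of the 4, W24 and W29 had 19 and 18 ESC reads, above the limit for random windows. W29 had 13 EB reads, 5 and 1 IgG reads, and a ratio of 1.28 (0.58 to 2.76). W26 had 13 ESC and 52 EB reads against 4 and 2 IgG reads, a ratio of 7.09 (3.81 to 14.2). With 6.72 RPM in EBs it was the highest value of all 53 places. W25 had 2 and 15 reads against 4 and 4 IgG reads, a ratio of 13.3 (3.09 to 120). Like W22 and W26 it held no motif match and was in the EB list alone, which selects for EB reads.

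W27, only 34.5 kb from W26, was the opposite case. It had 24 ESC reads and 1 EB read against 5 and 1 IgG reads, a ratio of 0.074 (0.0018 to 0.45), and a strong motif of 23.7 bits. W28, 12.4 kb further, had 26 and 28 reads against 3 and 2, and a ratio of 1.91 (1.08 to 3.39), under the 2-fold limit. W30, the nearest place on the 3′ side of Pax3, had 28 and 24 reads against 3 and 6. W27 and W28, and likewise W29 and W30, had motifs pointing away from each other, as did 13 of all 42 neighbouring pairs with a match.

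Pax3 (chr1:78097842-78193709, minus strand) held no site and lay in a stretch of 288 kb between W30 and W31. W31, 70.6 kb upstream of the start, had 20 ESC and 2 EB reads against 2 and 2 IgG reads, a ratio of 0.18 (0.020 to 0.73).

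From Kcnj16 to Sox9 (chr11:110729347-112749074, 2.02 Mb) there were 14 places, 5 in both lists, 6 in the ESC list alone and 3 in the EB list alone. K1 to K3 lay between Kcnj16 and Kcnj2, K4 to K9 and K10 to K12 in the region between Kcnj2 and Sox9, and K13 and K14 towards Sox9, 278 kb apart. No place was in any of the 3 genes, and none lay in the 100 kb outside them on either side.

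**Figure D3:**
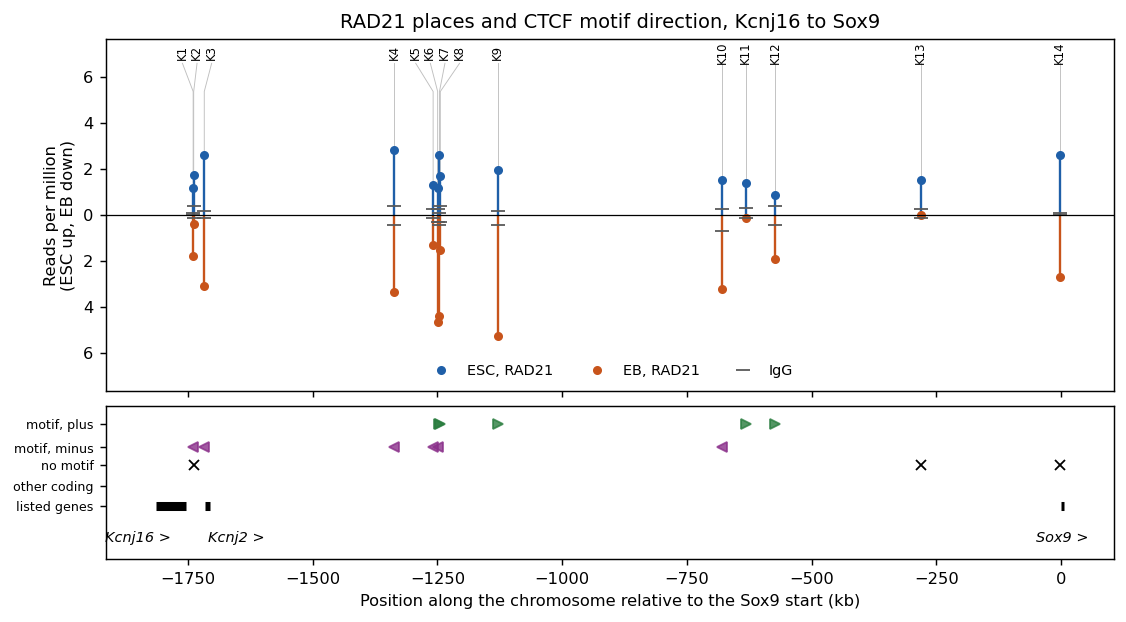
RPM at the 14 places from Kcnj16 to Sox9, against position along the chromosome in kb from the Sox9 start (ESCs up, EBs down, IgG as grey dashes). K1 and K3 to K6 have motifs on the minus strand and K7 to K9 on the plus strand, and K6, K7 and K9 hold the highest EB values.

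Kcnj2 and Sox9 each had a place in both lists just upstream of the start. K3, 1.41 kb upstream of Kcnj2 (chr11:110927478-110938135, plus strand), had 36 ESC and 24 EB reads against 2 and 1 IgG reads. K14, 2.28 kb upstream of Sox9 (chr11:112643538-112649074, plus strand), had 36 and 21 reads against 1 and 0, and was the ESC site of highest score. It lay in intron 1 of the gene model BC006965 and was the only place of the 21 in both lists without a motif match. The ratios were even, 1.18 at K3 (0.67 to 2.04) and 1.03 at K14 (0.57 to 1.82).

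Kcnj16 (chr11:110829347-110889282, plus strand) had no place upstream within the neighbourhood. Its nearest was K1, 74.5 kb downstream of the start, with 16 ESC and 14 EB reads against 1 and 0 IgG reads. K2, 1044 bp from K1, had 24 and 3 reads against 5 and 1, a ratio of 0.22 (0.043 to 0.73). K1 was listed in ESCs alone although its EB reads exceeded that limit, whereas those at K2 did not.

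At the rate of 1e-04 the motif direction changed once within the group K4 to K9. K1 and K3 to K6 had motifs on the minus strand, and K7 to K9 had them on the plus strand. The change fell between K6 and K7, 466 to 470 kb downstream of the Kcnj2 start. K6 had 16 ESC and 36 EB reads against 3 and 2 IgG reads, a ratio of 3.99 (2.16 to 7.69). K7 had 36 and 34 reads against 1 and 3, a ratio of 1.67 (1.02 to 2.75). So both sides of the change were bound in EBs at 4.65 and 4.39 RPM, while in ESCs K7 had more reads than K6.

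K9, 117 kb past K7, was the EB site of highest score here, with 27 ESC and 41 EB reads against 2 and 3 IgG reads and a ratio of 2.69 (1.62 to 4.55). K4, at the other end, had 39 and 26 reads against 5 and 3 and an even ratio of 1.18 (0.69 to 1.99). The remaining places of the group, K5 and K8, had 18 and 23 ESC reads and 10 and 12 EB reads.

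Towards Sox9 the places differed more. K10 had 21 ESC and 25 EB reads against 3 and 5 IgG reads, a ratio of 2.11 (1.13 to 3.96). K11, 47.8 kb further, had 19 and 1 reads against 4 and 1, a ratio of 0.093 (0.0022 to 0.59). K13 had 21 ESC reads and none in EBs, against 3 and 1 IgG reads, which makes it at least 3.95-fold lower when 0 reads are taken to allow 3. K10 was listed in EBs alone, yet had more ESC reads than 22 of the 45 places in the ESC list.

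The longest stretches without sites were picked for their length, so a high rank among autosomal stretches follows in part from that choice. Whether they are longer than such a choice would give was not tested. Their RAD21 reads were in total close to those of the IgG libraries. Over all autosomes the median stretch between neighbouring places was 61.8 kb, with a 95th percentile of 456 kb and a 99th of 1122 kb. The stretch from S3 to S4 (chr5:28796953-29601255) was 804 kb long, and 1.92% of the 18469 autosomal stretches were as long. It ran from just upstream of Shh through Gm10290 and Rnf32 into the 3′ part of Lmbr1. In it the RAD21 libraries had 1.02 (ESCs) and 0.84 (EBs) times the RPM of the IgG libraries.

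The region of Epha4 held the next 2 in length. From W22 to W23 (chr1:76721391-77509958, most of Epha4 included) it was 789 kb (1.98% as long), and from W21 to W22 (chr1:75994267-76720695, no coding gene) 726 kb (2.25% as long). The RAD21 to IgG ratios were 0.97 and 1.11 in the former and 0.97 and 1.04 in the latter, for ESCs and EBs. In the ESC list alone they were 1 stretch of 1516 kb, which 0.883% of 15066 ESC stretches reached.

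On chromosome 11 the longest were shorter. The stretch from K9 to K10 (chr11:111515038-111964248) measured 449 kb (5.10% as long), with ratios of 0.91 and 0.91. The stretch from K3 to K4, with Kcnj2, measured 380 kb, and a stretch of 468 kb that reached out of the neighbourhood held all of Kcnj16. Over the 3104 autosomal stretches of at least 200 kb the median ratios were 0.94 and 0.93.

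**Figure D4:**
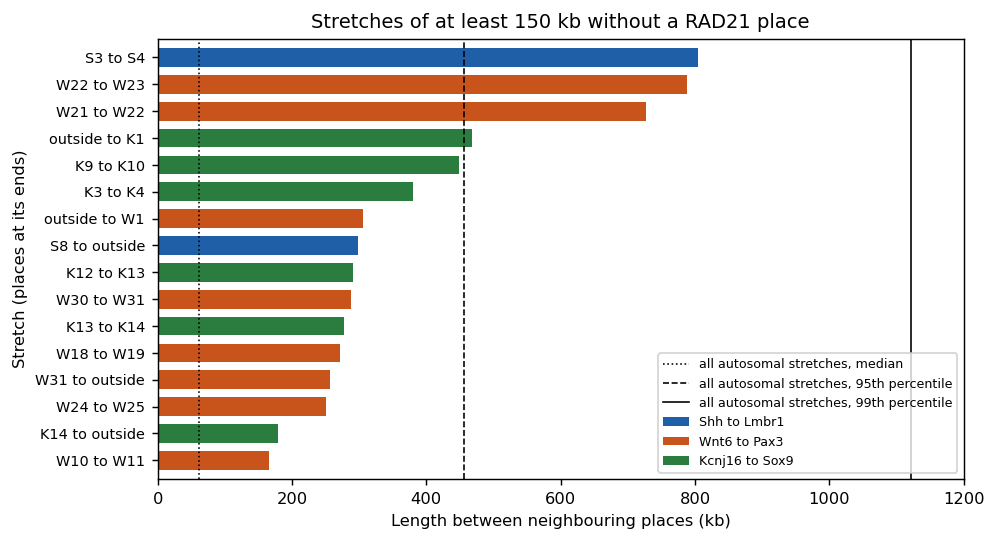
Length in kb of each stretch of at least 150 kb between neighbouring places, coloured by neighbourhood; vertical lines mark the median, the 95th and the 99th percentile of all 18469 autosomal stretches. The stretches S3 to S4, W22 to W23, W21 to W22 and the one that ends at K1 exceed the 95th percentile, and none reaches the 99th.

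The highest single windows in these stretches had similar counts in the RAD21 and IgG libraries, though not at the same positions. Between S3 and S4 the highest 500 bp window of the ESC RAD21 library had 15 reads, and the highest of the ESC IgG library 13. From W21 to W22 both had 12, from W22 to W23 they had 17 and 13, and from K9 to K10 both had 14. Windows above that were found between W24 and W25, with 19 ESC RAD21 reads, and in the stretch that ends at K1, with 24, where the highest IgG windows had 11 and 13. Those 2 windows had 6 EB RAD21 reads each, and 4 and 6 ESC IgG reads. At the other ESC RAD21 windows named, the ESC IgG library had 2, 2, 5 and 5 reads, in the order given. The window between S3 and S4, centred at chr5:29363553, had 7 EB RAD21 reads. The highest EB RAD21 window of that stretch was centred at chr5:29363503. It had 8 EB and 14 ESC RAD21 reads against 3 EB IgG reads, and was in neither list.

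Over all 53 places, 8 were called higher in EBs (15.1%) and 10 lower (18.9%). These shares were close to the 17.6% and 18.1% of all autosomal places. The 8 were W3, W12, W22, W25, W26, K6, K9 and K10, and the 10 were S3, S5, W5, W11, W21, W27, W31, K2, K11 and K13. None of the 8 places from Shh to Lmbr1 was called higher. All 10 lower places were in the ESC list alone, and a place listed in 1 cell type was selected for its reads there, so its ratio is a description.

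**Figure D5:**
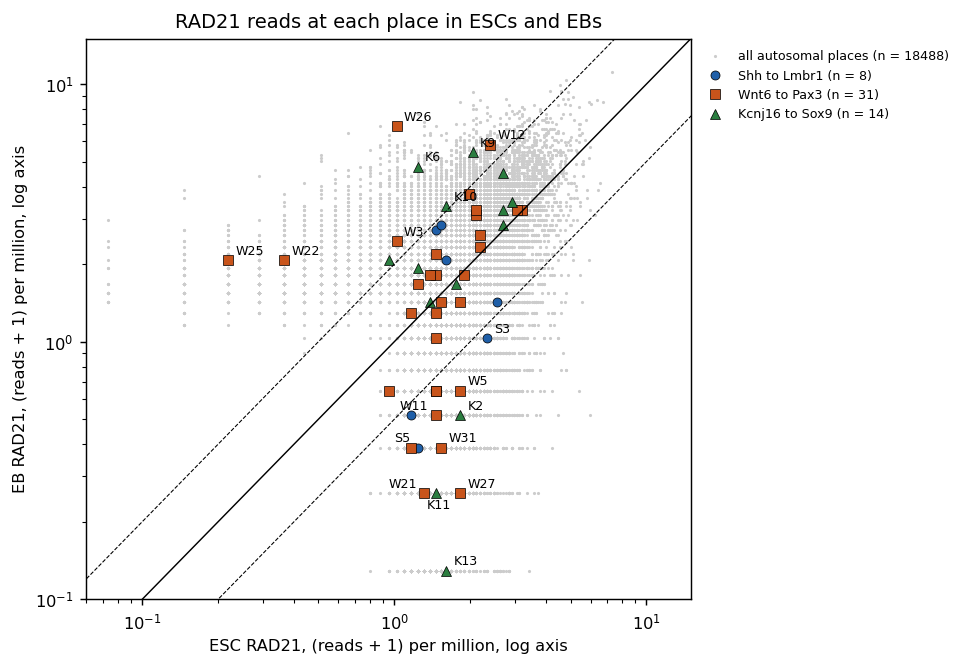
RAD21 RPM, with 1 read added, in ESCs (x) and EBs (y), both on log axes, at the 53 places by neighbourhood over all autosomal places in grey; the solid line is equality, the dashed lines are 2-fold. The labelled places are the 18 called, with W26 far above the upper line and K13, with 0 EB reads, at the bottom.

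The calls depend on how the libraries are scaled. When the ratio was set to a median of 1 at places in both lists, 5 places were higher and 15 lower, and the share over all autosomal places became 9.81% and 28.6%. Of the 18 calls, 9 held under all 6 alternatives (W22, W25, W26, K6 and K9 higher, W27, W31, K11 and K13 lower), and the others were lost under 1 or more. The alternative with a fold of at least 1.5 only lowers the limit, so it could lose no call. The scaling to shared places moves the median log2 ratio over all autosomal places from 0.04 to -0.36. Outside sites, the EB to ESC ratio of RAD21 RPM was 0.86 in the Shh to Lmbr1 neighbourhood, 1.10 from Wnt6 to Pax3 and 1.04 from Kcnj16 to Sox9, and that of IgG RPM was 0.96, 1.05 and 1.05. The part of these local differences in the ratios was not tested. A scaling by chromosome kept all 18 calls, but it does not stand in for the local ratios. Its RAD21 ratios outside sites were 0.98 for chromosome 5, 1.08 for chromosome 1 and 0.88 for chromosome 11. EBs hold several cell types, and more cells with a bound place cannot be told apart from more binding per cell.

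In most respects the neighbourhoods were close to the autosomes as a whole. They held 7.89 places per Mb, against 7.72. Of the ESC sites 46.7% overlapped an EB site and of the EB sites 72.4% overlapped an ESC site, against 48.6% and 68.3%. A motif match at the rate of 1e-04 was found at 45 of the 53 places (84.9%, against 86.4%), 21 on the plus and 24 on the minus strand. At the rate of 1e-05 there were 21 (39.6%, against 37.2%).

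By list, 20 of the 21 places in both lists held a match at 1e-04, as did 20 of the 24 in the ESC list alone and 5 of the 8 in the EB list alone. The autosomal shares were 94.4%, 87.4% and 66.9%. With the motif read in the direction printed above, the summit lay on its 3′ side at 38 of 45 places (84.4%), by a median of 55.5 bp, against 77.8% and 45.5 bp over all autosomal places. Intergenic summits made up 39 of 53 (73.6%), against 51.6% over the autosomes, a difference that was not tested.

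Sites close to a start were frequent among the 9 genes. Shh, Ihh, Epha4, Kcnj2 and Sox9 had a place within 5 kb of the start, that is 5 of 9, while 12.6% of 21418 coding genes did. The distance was chosen after the values were seen, and the genes were chosen with such results known. Of the other 38 coding genes in the neighbourhoods 3 had a place so near.

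Neighbouring motifs shared a strand about as often as elsewhere. Of 42 neighbouring pairs of places with a match, 19 (45.2%) had the same strand, against 47.1% over the autosomes. Motifs pointed away from each other in 13 of the 42 pairs, and in 4222 of 15950 pairs over the autosomes. By neighbourhood, the pairs on the same strand were 2 of 7 around Shh, 10 of 25 from Wnt6 to Pax3 and 7 of 10 from Kcnj16 to Sox9. Runs of 5 or more on 1 strand, such as W17 to W21 and K1 to K6 (K2 without a match left out), made up 3.71% of the 8463 autosomal runs. The change from minus to plus between K6 and K7 had at least 3 matches on either side, as did 5.47% of the 4222 such changes. All of this rests on the rate of 1e-04. At 1e-05 the matches left were K1, K5 and K6 on the minus and K8 on the plus strand, and W16 on the minus and W17, W18 and W20 on the plus strand. These run lengths were chosen after the order was seen.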

How the data were processed

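Sites, neighbourhoods and gene lists were chosen with earlier results of these data known. RAD21 was mapped in ESCs and EBs, 1 library each, with an IgG library of the same cells, called input DNA in its description. Groups follow the sample labels.

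The authors sequenced 35 base reads and deposited their positions on mm9, 1 line per read, from which read counts were made; the aligner is not given in the sources used here. Autosomal counts were 13714772 (ESC RAD21), 7740389 (EB RAD21), 12602155 (ESC IgG) and 6929293 (EB IgG), with 0 repeated positions. The EB IgG file ended within chromosome X, and 7 broken lines of the ESC IgG file were skipped, so comparisons used autosomes. The authors called peaks with MACS for each cell type against its IgG library and deposited a score per site, -10 times the log10 of its p-value. Neither list went below 50.01, that is a p of 1e-05; the study names 1e-05 and, in its methods, 1e-04 as the limit. The deposited summit height is a signal of piled-up reads in 1 library and was not compared.

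Sites overlapping by at least 1 bp were joined, with the summit of the higher score. Reads were moved to the fragment centre (fragments of 206 bp in ESCs, 197 bp in EBs) and counted within 250 bp of the summit. Ratios carry exact Clopper-Pearson intervals, which cover counting error only, and log2 ratios had 1 read added. No p-value was computed, since each group had 1 library. The CTCF matrix (width 20, seeded with the CTCF consensus) was learned on 8516 windows of even chromosomes and scored on odd ones, within 150 bp of the summit. Gene positions are those of GENCODE for the same build. The numbering of introns follows the transcript with most exons. Places were given with all 4 counts when they had the highest score of a list, were nearest to or in a listed gene, ended a longest stretch, or were called. Interval and motif code was tested on simulated data. Alternatives concerned the list score, the flank, the overlap, the counting window, scaling, fold, depth, and the motif threshold and distance. Python 3.11.15, NumPy 2.4.6 and SciPy 1.17.1 were used.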

Additional observations from a re-analysis of the deposited data

How the results depend on the processing

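The 18 called places kept their direction under all 6 alternatives of counting, scaling, fold and depth, while their calls did not all hold. The lower fold could by its design change no direction and lose no call. The numbers lost were 5 with reads within 100 bp, 2 within 500 bp, 3 with the ratio set to a median of 1 at shared places, 3 with ESC reads thinned to the EB number, and 0 with the other settings. Reads within 100 bp gave 6 lower places, 5 of the 10 and in addition W6, and scaling to shared places left 5 higher ones. The median log2 ratio turned from 0.08 to -0.12 from Wnt6 to Pax3 with reads within 500 bp, to -0.32 with scaling to shared places and to -0.031 with scaling by chromosome; from Kcnj16 to Sox9 it turned from 0.26 to -0.13 with scaling to shared places. The cause was not tested.

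Sites with a score of at least 100 numbered 2 in ESCs and 1 in EBs around Shh, 12 and 8 from Wnt6 to Pax3, and 4 and 7 from Kcnj16 to Sox9. In the last, the full lists held 11 ESC and 8 EB sites, so the order of the cell types was reversed. Of the ESC sites with such a score 77.8% overlapped an EB site. The longest stretch then measured 822, 1969 and 675 kb in the 3 neighbourhoods, against 904, 798 and 570 kb in the EB list alone, and 1516 and 497 kb in the ESC list from Wnt6 to Pax3 and from Kcnj16 to Sox9. At the motif rate of 1e-04, matches numbered 5 on the minus strand around Shh, 13 on the plus and 13 on the minus strand from Wnt6 to Pax3, and 5 and 6 from Kcnj16 to Sox9, against 2, 8, 5, 1 and 3 at 1e-05.

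With 12 to 43 ESC reads at a listed ESC site, intervals of a ratio span several fold, and a place missing from the EB list may be missing for the depth of that library, which had 0.564 of the ESC reads. No paired analysis was possible because each group has 1 library and no test was made.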

Other observations

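Of the 24 places listed in ESCs alone, 10 had more EB reads than 95% of random windows, and of the 8 listed in EBs alone, 6 had more ESC reads than 95% of them. Over all autosomal places these shares were 44.5% and 64.8%. Presence in 1 list alone is therefore not absence of reads in the other cell type, as at W24 (19 ESC reads), W29 (18) and K10 (21), which were listed in EBs alone.

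Calls in opposite directions lay close together. W26 (13 and 52 reads in ESCs and EBs) and W27 (24 and 1) are 34.5 kb apart, and K10 (21 and 25) and K11 (19 and 1) are 47.8 kb apart. The call of K10 was lost with scaling to shared places. With 1 read added to each count, RAD21 RPM at K10 was 5.05 times IgG RPM in ESCs and 3.88 times in EBs, so it did not rise relative to IgG. These pairs were picked after their values were seen.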
